A study of Homo sapiens with 9 samples.

Results

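PANC-1, an established human pancreatic adenocarcinoma cell line, was exposed for 72 h to 0.1 µM TVB-3166, the lower of the doses of this fatty acid synthase inhibitor, and its RNA was compared with that of vehicle-treated cells. The members are the 3 arrays titled TVB-3166 0.1 µM and the 3 arrays titled DMSO, chosen by title, out of 9 arrays in all. The other 3 arrays carry cells given 1.0 µM TVB-3166 and are set beside the low dose for some genes. The groups share the cell line, the 72 h exposure and a treatment medium of Advanced MEM with 1% charcoal-filtered serum and 1% L-glutamine that replaced the growth medium a day after seeding. The DMSO level is 0.05% in the treatment field and 0.5% in the descriptions. The labels state triplicate treatments and the titles number 3 replicates per group, but nothing says that they came from separate cultures. The p-values therefore measure the spread between these arrays, which may be technical.

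Fatty acid synthase builds palmitate from acetyl-CoA and malonyl-CoA, and TVB-3166 blocks that step. Cells sense the state of their membranes through the SREBP transcription factors, which are held in the endoplasmic reticulum by INSIG proteins when sterols are plentiful and otherwise travel to the nucleus to switch on the genes of fatty acid and sterol synthesis. Pancreatic adenocarcinoma is known for raised lipid synthesis, and shortage of amino acids, disturbed endoplasmic reticulum membranes or oxidants in such cells are read out through the ATF4 and NRF2 transcription factors.

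Before the results, 2 further disagreements in the labels bear on the groups. The description of 0.1 µM replicate 1 calls it a DMSO sample, while its title and treatment field give 0.1 µM. On the first principal component of all genes, which held 40.5% of the variance, that array lay with the other 0.1 µM arrays (5.9 to 12.9), apart from the DMSO arrays (-32.5 to -31.9) and the 1.0 µM arrays (22.7 to 24.5). The treatment field of the 1.0 µM arrays also reads 0.1 µM, against their titles and descriptions. The bacterial control transcripts added at hybridisation gave a higher signal on DMSO replicate 2, 0.1 µM replicates 1 and 3 and 1.0 µM replicate 2 than on the other 5 arrays. On the second component (16.6%) those 4 arrays lay between -22.6 and -4.1 and the other 5 between -4.9 and 22.1. Among pancreatic duct markers, 8 of 9 measured genes lay above the filter on low signal, against 1 of 9 acinar and endocrine markers, 5 of 10 blood cell markers and 2 of 10 endothelial markers.

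The low dose changed 1674 of the 13948 genes tested (12%), at an adjusted p under 0.05 in limma's moderated test with Benjamini-Hochberg adjustment. Of these, 961 were higher (6.89% of all genes) and 713 lower (5.11%). Values are MAS5 signals, and changes are differences in mean log2(signal + 16), which understate the fold of dim genes. In 4189 genes (30%) the 3 arrays at 0.1 µM did not overlap the 3 DMSO arrays, and so it was for 1669 of the 1674 genes called. The exceptions were CCSAP, PASK, PDS5B, UBE2NL and ZNF277, so every called gene described further on had groups apart. Signals are given in the order of replicates 1, 2 and 3, DMSO first. The median rise among genes called higher was 0.65 and the median fall among genes called lower was -0.58, while the median over all genes was -0.006. A change of 2-fold or more was reached by 220 of the genes called higher and 87 of those called lower, and of 4-fold or more by 19 and 2. With genes split by signal into 3 equal bins, 5.08% were called in the dim bin, 15.3% in the middle bin and 15.6% in the bright bin, and the median SE was 0.265, 0.138 and 0.110 in the same order. Counts of list members are to be read against the 6.89% and 5.11% of all genes called higher and lower. Leaving out 0.1 µM replicate 3, 0.1 µM replicate 1 or DMSO replicate 1 lowered the 1674 calls to 843, 1054 and 1092. Within the 5 arrays of lower control-transcript signal, which hold 2 DMSO arrays and 1 array at 0.1 µM, 324 genes were called, and within the other 4, which hold 1 DMSO array and 2 arrays at 0.1 µM, 1897. In both subsets 1 arm is a single array. Of 237 called genes named by the rules or in the text, 51 lost their call without 0.1 µM replicate 3, 37 without 0.1 µM replicate 1, 36 without DMSO replicate 1 and 19 to 25 without each of the others, and none of these fits turned a direction. Among genes described further on, CDK2, CPT1A, EIF2AK3, NQO1, PDK4, SDF2L1, SMAD6, TGFB2, TNFRSF10A and CLIC3 lost it in 4 of the 6 fits, PDIA3 and SGPL1 in 5, and PLIN2, COL3A1, NRG1, CDH1 and TUBB4B in 3. Averaging over all probe sets, in place of taking the brightest, gave changes over 1.5 times smaller for IFIH1 (0.75), NRG1 (0.69), TGFB2 (-0.35), SEL1L (0.12) and SLCO4C1 (2.55), and larger for SCD (1.23), TAP2 (0.67) and RNF145 (0.96).

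**Figure D1:**
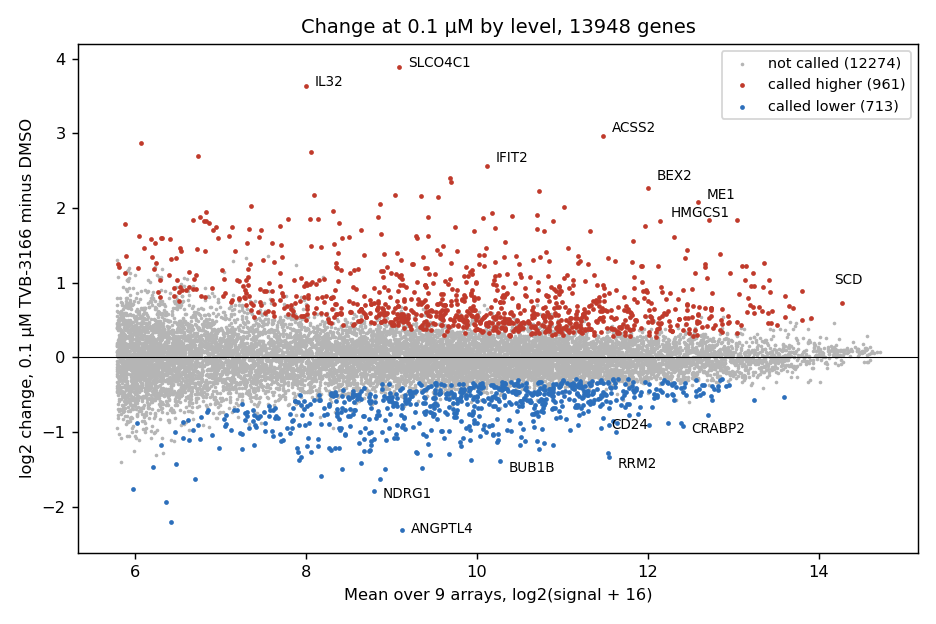
Each point is 1 of 13948 genes, with its mean log2(signal + 16) over 9 arrays on the horizontal axis and the log2 difference between 0.1 µM TVB-3166 and DMSO on the vertical axis. Genes called higher (961, red) and lower (713, blue) lie at all levels, with larger rises than falls at the extremes, from 3.88 for SLCO4C1 to -2.30 for ANGPTL4 among the labelled genes.

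Genes of fatty acid synthesis rose at the low dose, the drug's own target among them. FASN, which encodes fatty acid synthase, had signals of 3152, 3208 and 5638 on the DMSO arrays and 9996, 7715 and 10085 on the 0.1 µM arrays. The groups did not overlap, although DMSO replicate 3 stood above the other DMSO arrays, and the change was 1.25 ± 0.21 SE, adjusted p = 0.00181. ACSS2, which makes acetyl-CoA from acetate, rose from 649, 742 and 1062 to 6736, 5582 and 6779, a change of 2.96 ± 0.17 SE, adjusted p = 8.46e-07. ME1, the cytosolic malic enzyme that supplies NADPH, rose from 2462, 2208 and 2174 to 9506, 8777 and 10739 (2.07 ± 0.10 SE, adjusted p = 2.03e-07). All 3 arrays of each group lay close together for ME1, with a 4.24-fold gap between the group means. ACACA, which makes malonyl-CoA, rose less, from 2559, 2018 and 3241 to 3628, 4115 and 4341 (0.65 ± 0.14 SE, adjusted p = 0.0121). MID1IP1, a protein that helps the acetyl-CoA carboxylase polymerise, and ACSL1, which activates long-chain fatty acids, rose by 1.35 and 1.28.

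In the list for fatty acid synthesis 8 of 14 tested genes rose and none fell, with a median change of 0.59 against -0.006 over all genes. Without 0.1 µM replicate 3 the count of rises was 5. ACLY, the citrate lyase, did not pass (0.38 ± 0.15 SE, adjusted p = 0.124), and its 3 probe sets disagreed, with changes from 0.38 to 1.56. ACACB, the mitochondrial carboxylase that controls fatty acid oxidation, was at -0.28 and not called.

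Of the desaturases and elongases, 6 of 13 rose and 1 fell, with a median of 0.38. ELOVL6, which lengthens palmitate, went from 75.1, 95.1 and 74.6 to 265, 298 and 234. It was a dim gene whose groups were well apart (1.53 ± 0.17 SE, adjusted p = 0.000133). FADS2, the first desaturase of polyunsaturated fatty acids, rose by 1.29, FADS3 by 0.99 and HSD17B12, a ketoacyl reductase of the elongation cycle, by 0.82. SCD, the stearoyl-CoA desaturase, had 12360.1, 15455 and 16103 on DMSO and 28682, 17852 and 27392 at 0.1 µM. At 0.1 µM, replicate 2 stood near the DMSO arrays, and the change of 0.73 ± 0.21 SE, adjusted p = 0.0394, lost its call when DMSO replicate 1, 2 or 3 or 0.1 µM replicate 1 or 3 was left out. HACD3, a dehydratase of the same cycle, fell from 7745, 8042 and 7224 to 6357, 5806 and 5704 (-0.36 ± 0.10 SE, adjusted p = 0.0387). That call was lost when any 1 of the 6 arrays was left out.

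The mevalonate and sterol pathway had the highest share of risers among the lipid lists. Of its 17 tested genes 14 rose and none fell, with a median of 1.06, and 14 or 15 were called when each of the 6 arrays was left out. HMGCS1, which makes the precursor of mevalonate, rose from 1998, 2198 and 1885 to 7911, 6746 and 6965, a 3.56-fold difference of mean signals (1.82 ± 0.11 SE, adjusted p = 1.37e-06). FDPS, which makes farnesyl diphosphate, went from 3901, 4392 and 3529.6 to 17396, 10499 and 15189 (1.84 ± 0.18 SE, adjusted p = 4.47e-05). MVD, the decarboxylase that makes isoprenoid units, and LSS, which closes the sterol ring, rose by 2.16 and 1.33. The later sterol enzymes EBP, HSD17B7 and SC5D rose by 1.14, 1.02 and 0.90. GGPS1, which leads away from sterols to geranylgeranyl diphosphate, was at 0.35, TM7SF2 at 0.33 and PMVK at -0.03, and none of these passed.

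Among the genes that control SREBP, 7 of 13 rose and none fell (median 0.59). SREBF1, one of the SREBP genes, went from 1206, 1296 and 2024 to 4233, 3077 and 3627 (1.29 ± 0.20 SE, adjusted p = 0.00138). SREBF2, the other, was at 0.48 with an adjusted p of 0.107 in limma's test and was not called. INSIG1, which retains SREBP and is itself a target of it, rose from 3828, 4382 and 3662 to 9444, 8187 and 9796 (1.21 ± 0.10 SE, adjusted p = 1.90e-05). LPIN1, a phosphatidate phosphatase and SREBP target, rose from 2409, 2326 and 2541 to 7527, 6839 and 7936, with an SE of 0.09 around its change of 1.61. The escort protein gene SCAP and the proteases MBTPS1 and MBTPS2 that release SREBP were at -0.01, -0.02 and -0.07 and did not pass. The other risers were STARD4, which carries sterols, TMEM97 and PNPLA3, and RNF145, a ubiquitin ligase.

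Promoter sequences of INSIG1 and MID1IP1 are shown because each of these risers carries the core letters of a sterol regulatory element, TCANNCCAC, on either strand within 250 bases before the RefSeq start (build GRCh38.p14). The match stands in capitals, 108 bases before the start for INSIG1 (chr7:155297740-155297808, plus strand) and 40 bases for MID1IP1 (chrX:38801389-38801457, plus strand), where it reads on the opposite strand.
INSIG1: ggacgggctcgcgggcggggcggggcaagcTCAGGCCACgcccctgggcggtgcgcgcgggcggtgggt
MID1IP1: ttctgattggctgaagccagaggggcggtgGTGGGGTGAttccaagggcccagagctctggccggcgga
Of the tested genes, 11218 had a promoter in the table. These letters occurred in 3.17% of all 27305 promoters, 2.71% of those of tested genes, 3.41% of the 791 promoters of genes called higher and 3.06% of the 589 of genes called lower. They were in 3 of 12 promoters of the fatty acid synthesis list and 2 of 11 of the SREBP control list. The carriers besides MID1IP1 and INSIG1 were ACLY, ACACB and SREBF2, none of them called. In the sterol list the letters were in 0 of 15 promoters, which says only that they are not in those windows.

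Targets of LXR, the nuclear receptor for oxysterols, rose in 5 of 8 cases and fell in none (median 0.69). ABCA1, the cholesterol exporter, went from 178, 202 and 216 to 621, 744 and 605 (1.65 ± 0.15 SE, adjusted p = 2.24e-05). LPCAT3, which puts polyunsaturated chains into phospholipids, rose by 1.44 on its brighter probe set, while the other gave -0.27 and their mean 0.59, and NR1H3, the gene of LXR-alpha, by 0.71. MYLIP, a ubiquitin ligase that removes lipoprotein receptors, rose by 0.98.

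Genes of fatty acid oxidation and PPAR targets went both ways, 4 up and 5 down of 18, with a median of -0.08. ANGPTL4, a secreted inhibitor of lipoprotein lipase, fell from 1402, 1815 and 1836 to 289, 419.5 and 285, a 5.09-fold drop (-2.30 ± 0.22 SE, adjusted p = 3.88e-05). PDK4, which restrains pyruvate oxidation, changed by -0.79, CPT1A, the gate to mitochondrial oxidation, by -0.45 and PLIN2, a lipid droplet coat protein, by -0.50. UCP2, a mitochondrial carrier, rose from 1385, 1373 and 2075 to 3020.5, 3166 and 2918 and HADHA, of the oxidation cycle itself, by 0.69. The count of falls was 1 to 3 when each array was left out, and lowest without 0.1 µM replicate 3.

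Of glycerolipid and lipid droplet genes 2 of 19 rose and 2 fell (median -0.001). The rises numbered 1 without DMSO replicate 1 or 3 or 0.1 µM replicate 1 or 3, and 3 without either replicate 2. AGPAT2, an acyltransferase on the way to phosphatidate, fell from 2461, 2834 and 2475 to 1522, 1436 and 1333 (-0.85 ± 0.10 SE, adjusted p = 0.00012), and HILPDA, an inhibitor of droplet lipolysis, fell by 0.62 on the log2 scale. GPAT3, the first acyltransferase of the pathway, rose by 0.84. Phospholipid and sphingolipid synthesis had 1 rise without 0.1 µM replicate 1 or 3. In the main fit 3 of its 32 genes rose (9.38%, against 6.89% of all genes) and none fell. One of them, PCYT2, the rate-limiting enzyme of phosphatidylethanolamine synthesis, rose from 740.4, 746 and 841 to 2175, 1872 and 2010.5 (1.36 ± 0.11 SE, adjusted p = 9.94e-06), and the others, PEMT and SGPL1, rose by 0.52 and 0.35.

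**Figure D2:**
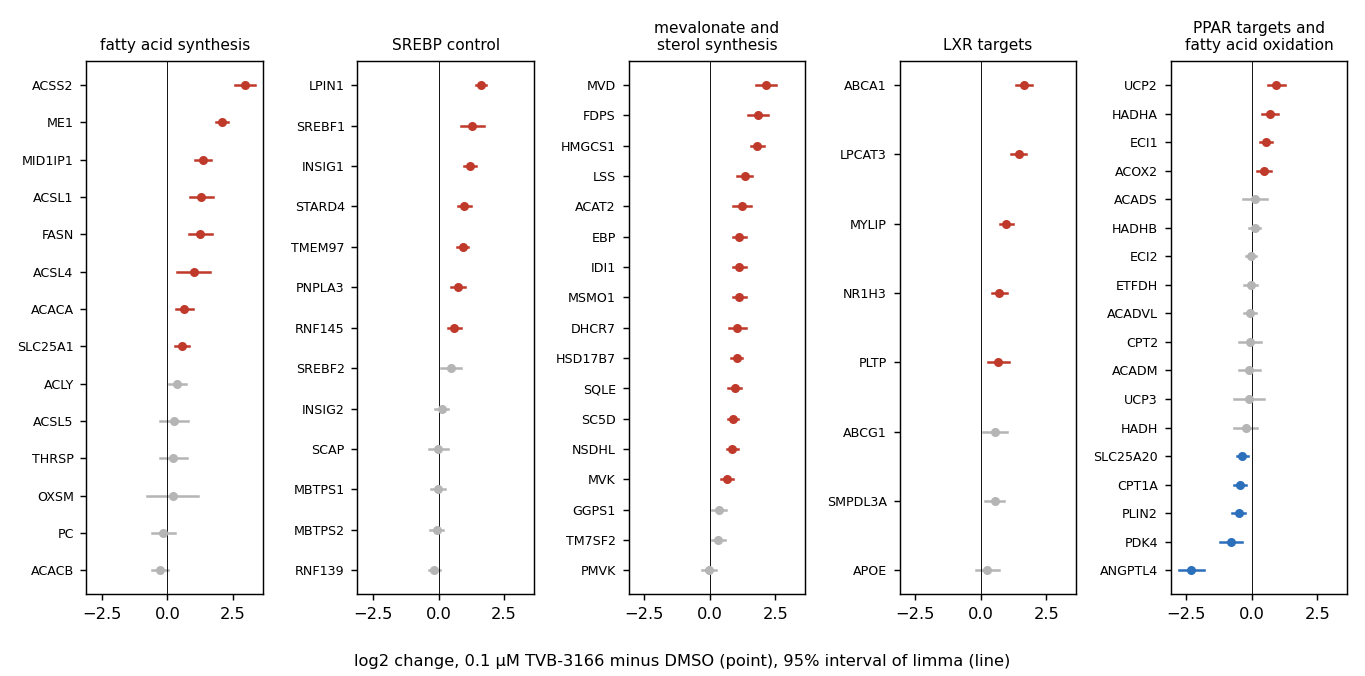
Points give the log2 difference between 0.1 µM TVB-3166 and DMSO for every tested gene of 5 lipid lists, and lines the 95% interval from limma (red called higher, blue called lower, grey not called). In mevalonate and sterol synthesis 14 of 17 genes lie to the right with intervals clear of 0, while PPAR targets and fatty acid oxidation spread from -2.30 for ANGPTL4 to 0.93 for UCP2.

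Regulators and effectors of ATF4, the transcription factor of the amino acid and stress response, formed another group that rose. Of 23 regulators and effectors 17 rose and none fell, with a median of 0.75. TRIB3, a pseudokinase and ATF4 target, went from 2441, 2847 and 2976 to 9641, 8336 and 11916 (1.84 ± 0.14 SE, adjusted p = 6.87e-06). CHAC1, which degrades glutathione, rose from 590.1, 655 and 971 to 2500.2, 2288 and 2454 (1.72 ± 0.16 SE, adjusted p = 3.56e-05). DDIT3, the transcription factor CHOP, rose from 1586, 1984 and 1897 to 4764, 3702 and 4834, and CEBPG, a partner of ATF4, by 1.22. ATF4 itself rose by 0.95 and SESN2, a leucine sensor, by 1.37. Of the kinases that start the response, EIF2AK3 (PERK) rose by 0.46, while EIF2AK1, EIF2AK2 and EIF2AK4 lay between -0.13 and 0.11 and were not called.

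Of 17 amino acid transporters 7 rose and 1 fell (median 0.44). SLC7A11, the cystine importer, rose from 668, 719 and 809.6 to 2887, 2961 and 3156 (2.02 ± 0.09 SE, adjusted p = 1.51e-07). SLC1A4, a neutral amino acid carrier, rose by 1.70, SLC7A1, which imports arginine, by 0.88, and SLC3A2, the shared heavy chain, by 0.94. SLC6A6, the taurine transporter, went the other way, from 3322, 2963 and 2953 to 1257, 1640.0 and 1278 (-1.15 ± 0.13 SE, adjusted p = 0.000144). SLC7A5, the main leucine importer, was at 0.49 and was not called (adjusted p = 0.0515, limma).

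In the synthesis of serine, one-carbon units, asparagine and proline 12 of 16 genes rose and none fell, with a median of 0.82. PHGDH, the entry enzyme of serine synthesis, went from 1863, 2468 and 2425 to 5636, 4803 and 5296 (1.22 ± 0.12 SE, adjusted p = 6.02e-05). ASNS, the asparagine synthetase, rose by 1.04, PSAT1 by 0.88, and the cytosolic aminotransferases BCAT1 and GOT1 by 1.21 and 1.01. CTH, which makes cysteine from cystathionine, rose from 518, 416 and 483 to 989, 1471 and 1329 (1.38 ± 0.17 SE, adjusted p = 0.000248). PYCR3, a proline enzyme, at -0.54 and PSPH, the last enzyme of serine synthesis, at 0.14 were not called.

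Cytosolic and mitochondrial aminoacyl-tRNA synthetases, which load amino acids onto tRNAs, differed in their counts. Of 17 cytosolic genes 8 rose (median 0.47), and of 15 mitochondrial genes none was called by limma (median -0.14, with 0 higher and 2 lower at an unadjusted p under 0.05), though no test of the difference between the lists was run. WARS1, the tryptophan enzyme, which interferon also induces, went from 1678, 1604 and 1750.2 to 5227, 6381 and 5516 (1.75 ± 0.09 SE, adjusted p = 4.92e-07). SARS1, YARS1 and AARS1, for serine, tyrosine and alanine, rose by 0.86, 0.67 and 0.64. The genes for histidine, lysine and phenylalanine (HARS1, KARS1, FARSA and FARSB) lay between -0.08 and -0.01. The count of cytosolic rises was 4 without DMSO replicate 1, 0.1 µM replicate 1 or 0.1 µM replicate 3, 5 without DMSO replicate 3 and 10 without 0.1 µM replicate 2.

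Stretches of the ASNS and CHAC1 promoters show the core of the C/EBP-ATF response element, to which ATF4 is known to bind. The letters TGATGNAA were searched on both strands in the same windows and stand in capitals, 68 bases before the start of ASNS (chr7:97872439-97872506, minus strand) and, on the opposite strand, 209 bases before that of CHAC1 (chr15:40953232-40953299, plus strand).
ASNS: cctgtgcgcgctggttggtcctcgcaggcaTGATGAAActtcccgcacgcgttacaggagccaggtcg
CHAC1: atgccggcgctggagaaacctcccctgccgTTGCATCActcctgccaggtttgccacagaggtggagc
They occurred in 3.19% of all promoters, 3.16% of those of genes called higher, 1.53% of those of genes called lower and 1.65% of all tested genes. In the serine, one-carbon, asparagine and proline list they were in 3 of 11 promoters, and in the list of ATF4 regulators and effectors in 3 of 20. In the cytosolic synthetases they were in 2 of 14 and in the amino acid transporters in 0 of 15.

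Chaperones of the endoplasmic reticulum went both ways. Of 24 genes of folding and degradation 4 rose and 6 fell, with a median of -0.03. ERN1, the sensor IRE1, went from 422, 469 and 486 to 1004, 1064 and 1182 (1.21 ± 0.10 SE, adjusted p = 1.77e-05). The 3 probe sets of ERN1 gave 0.04 to 1.21, with a mean of 0.48. XBP1, its splicing target, rose by 1.06, a call that did not hold for the mean of its probe sets. DNAJB9 and SEL1L, both XBP1 targets, rose by 0.40 and 0.34. The 4 probe sets of SEL1L gave -0.205 to 0.341, and its call was lost on their mean. The SEL1L call was also lost with median centring, with the replicate block and without 0.1 µM replicate 3. The chaperones CALR and HSP90B1 fell from 4269, 4131 and 4441 to 2764, 2458 and 2833 and from 3635, 3700.5 and 3896 to 2474, 2555 and 2446 (-0.67 ± 0.09 SE, adjusted p = 0.000577, and -0.58 ± 0.09 SE, adjusted p = 0.00124, both by limma). The folding factors CRELD2, PDIA4, SDF2L1 and PDIA3 fell as well, by 0.57, 0.50, 0.48 and 0.37 on the log2 scale. HSPA5, the chaperone BiP, was at 0.46 with an adjusted p of 0.128 in limma's test. Its 2 probe sets gave 0.46 and 0.98. With the control-transcript set as a block HSPA5 was called higher, at 0.32.

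NRF2 targets and glutathione genes rose in 7 of 23 cases and fell in none (median 0.31). HMOX1, the heme oxygenase, went from 3115, 3488 and 3508 to 7999, 7512 and 11349 (1.38 ± 0.17 SE, adjusted p = 0.000234). GCLM, the regulatory subunit of glutathione synthesis, rose from 2391, 1914 and 2529.9 to 3742, 4453 and 4464, and OSGIN1, a stress-induced growth inhibitor, from 49.2, 49.3 and 43.5 to 178, 116 and 226. NQO1 rose by 0.63 and PGD, of the pentose phosphate pathway, by 0.66. GCLC, the catalytic partner of GCLM, was at 0.26 and was not called, and the peroxidase GPX4 was at 0.08.

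Interferon-stimulated genes were among the steepest risers. Of 31 tested 21 rose and none fell, with a median of 0.81, and 18 to 19 were called when each array was left out. IFIT2, an RNA-binding antiviral protein, went from 358, 369.8 and 314 to 2066, 2044 and 2285 (2.56 ± 0.10 SE, adjusted p = 8.73e-08), the smallest p of all genes called higher. OASL, a relative of the oligoadenylate synthetases, rose from 274, 305 and 285 to 1486, 1245 and 1276, and ISG20, an exonuclease, from 239.9, 248 and 242 to 925, 908 and 969.9. The spread within each group was small beside these gaps, and the changes were 2.15 ± 0.10 and 1.88 ± 0.10 (SE). IRF1, a transcription factor, rose by 1.39, IFIH1, the double-stranded RNA sensor MDA5, by 1.19 and its relative RIGI by 0.52. MX1, an antiviral GTPase, rose by 1.87, or 1.19 with a constant of 64, but MX2 was at 0.11, OAS1 at 0.31 and USP18, a brake on interferon signalling, at 0.06, none of them called.

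Antigen presentation genes rose in 4 of 19 cases (median 0.27). These were TAP1, the peptide transporter, from 757, 783 and 953 to 1973, 1659.6 and 1814 (1.12 ± 0.14 SE, adjusted p = 0.000221), its partner TAP2 by 0.38, and the immunoproteasome subunits PSMB9 and PSMB8 by 0.66 and 0.51. The class I chains HLA-B and HLA-C were at 0.32 and 0.33 and did not pass, and B2M was at 0.15. The summed signal of the 10 blood cell markers ranged from 421 to 602 on the DMSO arrays and from 472 to 568 at 0.1 µM.

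The promoters of IFIT1, IFIT3 and ISG15 show the core of the interferon-stimulated response element, which the factors IRF9 and IRF1 are known to read. The letters GAAANNGAA were searched on both strands, and matches stand in capitals, overlapping ones as 1 run. IFIT1 (chr10:89392478-89392559, plus strand) has 2 at 115 and 102 bases before the start, IFIT3 (chr10:89327812-89327914, plus strand) 2 at 155 and 121 bases, and ISG15 (chr1:1013354-1013434, plus strand) 3 that overlap, at 113, 107 and 101 bases.
IFIT1: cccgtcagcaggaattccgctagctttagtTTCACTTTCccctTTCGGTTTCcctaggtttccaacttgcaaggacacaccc
IFIT3: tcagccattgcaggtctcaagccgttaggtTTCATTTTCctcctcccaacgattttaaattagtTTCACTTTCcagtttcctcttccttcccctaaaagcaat
ISG15: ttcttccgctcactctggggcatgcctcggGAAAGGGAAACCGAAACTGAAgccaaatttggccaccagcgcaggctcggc
IFIT1 and IFIT3 rose by 1.73 and 2.22, and ISG15, a ubiquitin-like modifier, rose less, by 0.81. The letters occurred in 14 of 24 promoters of the interferon list, 7.96% of those of genes called higher, 4.24% of those of genes called lower, 5.44% of those of all tested genes and 7.06% of all promoters.

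NF-kB genes, cytokines and chemokines rose in 17 of 30 cases and fell in none, with a median of 0.62. CX3CL1, a membrane-bound chemokine, went from 382, 348 and 420.4 to 1461, 1199 and 1692 (1.87 ± 0.14 SE, adjusted p = 6.11e-06). ICAM1, the leukocyte adhesion receptor, rose from 894, 1034 and 1196 to 3780.3, 3029.8 and 3332 (1.69 ± 0.15 SE, adjusted p = 1.90e-05). IL32, an intracellular cytokine, had signals of 18.8, 18.7 and 32.5 under DMSO, all below the filter level of 39, and 442, 469 and 480.3 at 0.1 µM. Its change of 3.63 therefore depends on the constant added before the logarithm. The feedback inhibitors NFKBIA, NFKBIE and TNFAIP3 rose by 0.56, 1.12 and 0.94, and the alternative-pathway subunits RELB and NFKB2 by 1.07 and 1.12. RELA and NFKB1, the classical subunits, were at 0.17 and 0.21, and IL1A and IL1B at -0.52 and -0.32, with no call.

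**Figure D3:**
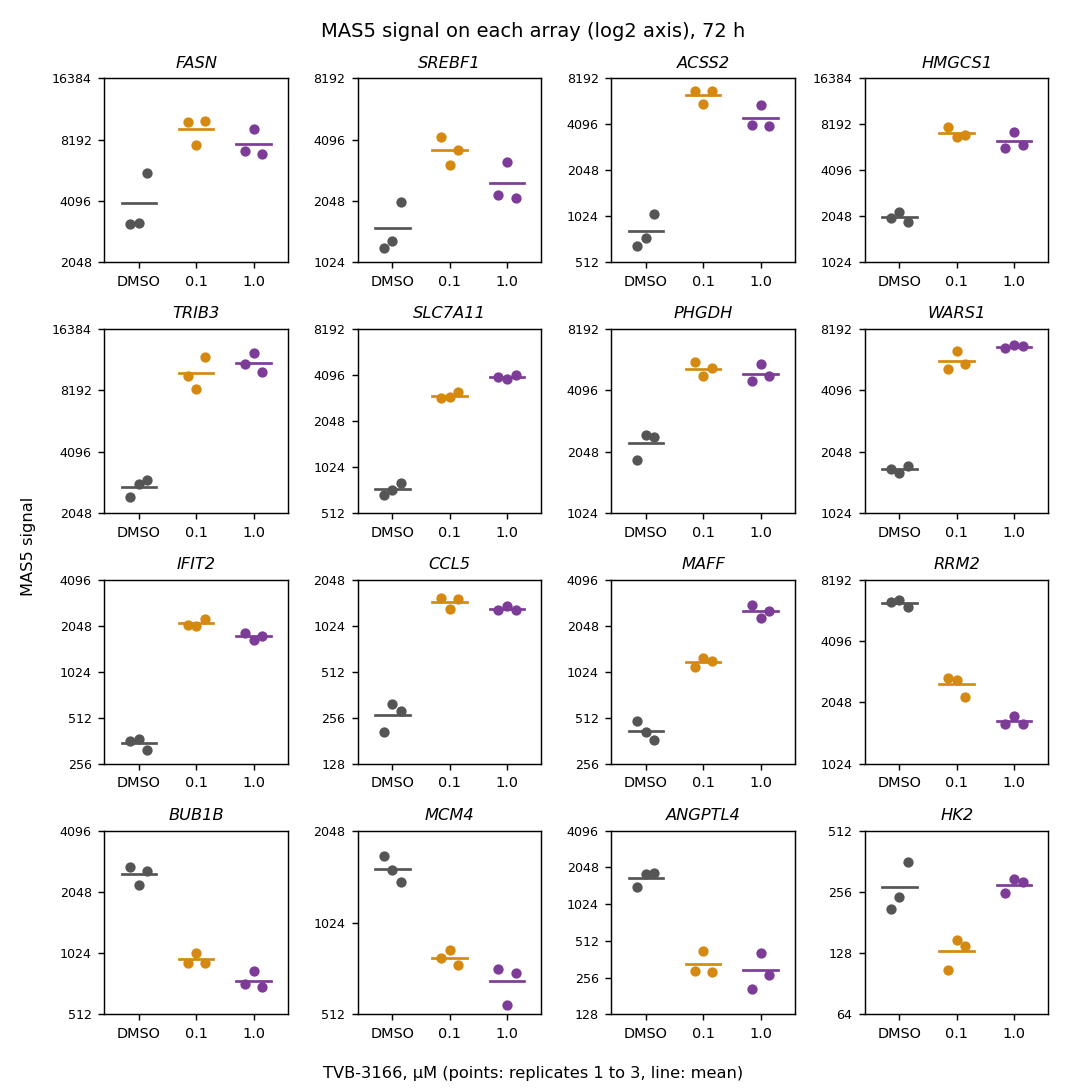
MAS5 signals of 16 genes on each array, with a log2 vertical axis, for DMSO, 0.1 µM and 1.0 µM TVB-3166 (3 points per group, lines at the means). All 16 genes separate the 0.1 µM arrays from the DMSO arrays, MAFF and RRM2 move further at 1.0 µM, and HK2 returns to the DMSO range there.

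Ligands of the EGF receptor family and outputs of the ERK kinases rose in 12 of 30 cases and fell in none (median 0.27). HBEGF, a heparin-binding ligand, went from 309.6, 298 and 334 to 967, 816 and 945 (1.49 ± 0.10 SE, adjusted p = 3.22e-06), or 0.89 on the mean of its probe sets, and the ligands NRG1 and EREG rose by 1.25 and 1.02. MAFF, a small bZIP factor, rose from 485, 412 and 367 to 1108, 1259.9 and 1196 (1.47 ± 0.12 SE, adjusted p = 9.94e-06). The ERK phosphatases DUSP6 and DUSP5 rose by 0.79 and 0.67, and the inhibitor SPRY4 by 0.66. The receptors EGFR and ERBB2 were at 0.19 and -0.38, and the early gene EGR1 at 0.09, none of them called. Among KLF transcription factors 5 of 14 rose, with KLF4 from 390.5, 308 and 280.1 to 668, 875 and 761 (1.20 ± 0.14 SE, adjusted p = 0.000213). KLF15 rose from 17.5, 31.5 and 11.8, all below the filter level, to 100.4, 80.0 and 92.9. It therefore passed the filter only through its treated arrays, and a constant of 64 gave a change of 0.885 instead of 1.594.

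Genes of the cell cycle fell at the low dose. Of 53 mitosis genes 44 fell and none rose, with a median of -0.87, and 38 to 45 were called when each array was left out. BUB1B, a checkpoint kinase, went from 2721, 2204 and 2608 to 919, 1027 and 914, a 2.63-fold drop (-1.38 ± 0.11 SE, adjusted p = 9.94e-06). CENPF, a kinetochore protein, fell from 2096, 1967 and 2278 to 944, 958 and 956 (-1.14 ± 0.09 SE, adjusted p = 1.01e-05). MKI67, the proliferation antigen, fell from 1206, 1168 and 1245 to 606, 625 and 569.7 (-0.99 ± 0.09 SE, adjusted p = 3.30e-05). The 3 arrays of each group agreed within a narrow band for these genes, with the highest 0.1 µM array far below the lowest DMSO array. MYBL2, a transcription factor of the late cycle, fell by 1.41 on the log2 scale and CDK1 by 1.17. FOXM1, which drives many of these genes, was at -0.38 and CENPA at -0.18, and neither passed. In a bulk sample fewer dividing cells and less of these RNAs per cell cannot be told apart.

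DNA replication and repair genes fell in 28 of 42 cases and rose in none (median -0.64). MCM10, which helps to start replication, went from 493, 406 and 478 to 187, 159 and 158 (-1.37 ± 0.17 SE, adjusted p = 0.000324), and MCM4, a helicase subunit, from 1695, 1527 and 1388 to 782, 831 and 745 (-0.95 ± 0.12 SE, adjusted p = 0.000333). GINS1, FANCI and POLE2 changed by -1.11, -1.03 and -1.10, while RFC2, a clamp loader subunit, was at 0.09 and POLD1 at -0.06, with no call. Of 23 nucleotide synthesis genes 5 fell and 1 rose. RRM2, the regulated subunit of ribonucleotide reductase, fell from 6359, 6528 and 6055 to 2689.6, 2649.5 and 2185 (-1.33 ± 0.10 SE, adjusted p = 6.11e-06), and TYMS and TK1, which supply thymidylate, changed by -0.88 and -0.67. The 1 riser, GART, a purine enzyme, was at 0.42 and lost its call in 5 of the 6 fits that left out an array.

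At the G1 checkpoint 4 of 24 genes fell and 2 rose. CCNE2, a cyclin of S phase entry, went from 861, 766 and 708 to 289.7, 422 and 269 (-1.23 ± 0.18 SE, adjusted p = 0.000746), and CDK2 and CDK6 changed by -0.60 and -0.59, the latter not called on the mean of its probe sets. MXD1, an antagonist of MYC, rose from 116, 106 and 158 to 242, 264 and 318 (1.03 ± 0.17 SE, adjusted p = 0.00156), and CDKN1A, the inhibitor p21, rose by 0.38. MYC itself had 2264, 2450.0 and 2435 under DMSO and 2679.7, 2378 and 3150.3 at 0.1 µM. These ranges overlapped, and its change of 0.19 ± 0.11 (SE) had an adjusted p of 0.338 in limma's test. Cyclin genes CCND1 and CCNE1 were at -0.19 and -0.06, not called. The count of falls was 2 without DMSO replicate 1, 0.1 µM replicate 1 or 0.1 µM replicate 3.

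Genes of the hypoxia response and glycolysis fell in 11 of 34 cases and rose in 1, with a median of -0.33. NDRG1, a hypoxia-induced differentiation gene, went from 794, 1092 and 1280.4 to 333, 254 and 284 (-1.79 ± 0.17 SE, adjusted p = 3.31e-05). ANKRD37, a small HIF target, fell from 949, 1012 and 927 to 309, 377 and 312 (-1.49 ± 0.12 SE, adjusted p = 8.82e-06). ENO2, PDK1 and P4HA1, for an enolase, a pyruvate dehydrogenase kinase and a collagen hydroxylase, changed by -1.17, -0.88 and -0.66. Of the bulk glycolytic enzymes LDHA was at -0.33, PGK1 at -0.27 and GAPDH at 0.08, none of them called. The 6 probe sets of PGK1 gave -1.02 to -0.27. With the control-transcript set as a block LDHA and PGK1 were called lower, at -0.465 and -0.386. The list had 16 falls in that fit and also after quantile normalization. The 1 riser, LOX, a collagen crosslinker, rose from 38.5, 31.2 and 34.8 to 82, 64.2 and 72.3, also from below the filter level, a call lost whichever array was left out. In the respiratory chain 1 of 28 genes fell, ATP5MC1 at -0.54, and the median was -0.08, though 9 fell with the control-transcript set as a block and 6 after quantile normalization. No proteasome gene of 24 was called by limma (median 0.12, with 1 higher and 0 lower at an unadjusted p under 0.05), and 2 of 22 ribosome biogenesis genes fell, NOP58 and WDR75. No ribosome biogenesis gene was called lower without DMSO replicate 1, 0.1 µM replicate 1 or 0.1 µM replicate 3.

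Matrix genes fell in 7 of 29 cases and rose in none (median -0.25). MXRA5, a secreted matrix protein, went from 2412, 2198 and 1904 to 902, 896 and 689 (-1.38 ± 0.13 SE, adjusted p = 3.24e-05), and SPARC, a collagen-binding glycoprotein, from 2370.5, 2476 and 3249 to 1256, 1087 and 1332 (-1.12 ± 0.14 SE, adjusted p = 0.000225). COL1A1 fell from 4616, 4076 and 4333 to 2136, 3011 and 2288, with -1.13 to -0.05 over its 4 probe sets. COL1A2, its partner chain, was at -0.04 but was dim. Its signals were 72.4, 51.2 and 45.4 under DMSO and 50, 39.9 and 74.3 at 0.1 µM. The count of falls was 4 without DMSO replicate 1, 2 or 3, and 3 without 0.1 µM replicate 3. Beside this, the summed signal of 10 fibroblast and stellate cell markers was 955.5 to 1168 on the DMSO arrays and 785 to 829 at 0.1 µM, with 5 of 10 above the filter and COL3A1 called (-0.68). Of these markers COL1A2, COL3A1, DCN, ACTA2 and THY1 were above the filter, and LUM, PDGFRA, PDGFRB, FAP and POSTN were under it. All arrays are of a cell line, and these markers include collagens, so their sum is not separate from the matrix genes. The cause of the lower sum was not tested.

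Epithelial and mesenchymal markers were mixed, with 6 of 30 higher and 3 lower. KRT7, a duct keratin, went from 338, 289.8 and 327 to 662, 715 and 736 (1.11 ± 0.12 SE, adjusted p = 7.52e-05), while its other probe set gave 0.003 and their mean 0.56, and CLDN1, a tight junction protein, rose by 1.22. Of the cadherins 3 fell: CDH10 from 273, 246 and 186 to 75.4, 68.6 and 51.3, CDH3 (P-cadherin) by 0.96 and CDH1 (E-cadherin) by 0.59 on the log2 scale, the last not called on the mean of its probe sets. The mesenchymal genes VIM, ZEB1 and CDH2 were at 0.03, -0.03 and -0.20, without a call. The count of rises was 2 without 0.1 µM replicate 3, 3 without DMSO replicate 2 or 0.1 µM replicate 1, and 4 to 6 without each of the others.

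In the TGF-beta, SMAD and ID list 5 of 22 rose and 4 fell. INHBE, an activin subunit and ATF4 target, rose from 31.3, 37.1 and 31.8 to 132, 138 and 169 (1.71 ± 0.22 SE, adjusted p = 0.000324). Its DMSO signals were all below the filter level, and a constant of 64 gave 1.11. In the same list ID1, an inhibitor of differentiation, SMAD6, an inhibitory SMAD, and the ligand TGFB2 changed by -0.49, -0.47 and -0.72. The counts were 2 rises and 0 falls without 0.1 µM replicate 3, 2 and 1 without DMSO replicate 1 or 0.1 µM replicate 1, 4 and 2 without DMSO replicate 2, and 2 and 3 without DMSO replicate 3. In the Wnt list 2 of 25 rose (8%, against 6.89% of all genes) and 3 fell (12%, against 5.11%). No rise was called without DMSO replicate 1 or 2 or without any 1 of the 0.1 µM arrays, and 1 fall was called without DMSO replicate 3 or 0.1 µM replicate 1. CTNNB1, beta-catenin, had 6075, 5529.9 and 6413 under DMSO and 4462, 5095 and 4461 at 0.1 µM. These groups did not overlap, but the change was small (-0.36 ± 0.10 SE, adjusted p = 0.0334) and lost its call in 4 of the 6 fits that left out an array. FZD7, a Wnt receptor, fell by 0.53 on the log2 scale. In the insulin and FOXO list 1 of 22 rose, PIK3IP1, an inhibitor of PI3-kinase, from 238, 211 and 230.5 to 491, 482 and 567 (1.12 ± 0.14 SE, adjusted p = 0.000297), and 1 fell, IGFBP3, a carrier of insulin-like growth factors (-0.70), which lost its call in 5 of the 6 fits that left out an array. The list's shares of 4.55% higher and 4.55% lower were near those of all genes (6.89% and 5.11%).

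Apoptosis genes moved in both directions. Of 28 genes 6 rose and 2 fell, with a median of 0.13. PMAIP1, the death activator NOXA, rose from 888, 747 and 905 to 1666, 1959.5 and 1774 (1.08 ± 0.11 SE, adjusted p = 6.26e-05), and the death receptors TNFRSF10B and TNFRSF10A rose by 0.88 and 0.64. BCL2A1, a survival protein and NF-kB target, rose from 113, 83.6 and 88.3 to 244, 354 and 297, a 3.14-fold difference of mean signals (adjusted p = 0.000315, limma). BCL2L11, the death activator BIM, fell from 2634, 2427 and 2684 to 1359, 1441 and 1236 (-0.93 ± 0.09 SE, adjusted p = 4.05e-05), and BAX and MCL1 were at 0.38 and 0.07, not called.

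Autophagy and lysosome genes rose in 5 of 31 cases and fell in none. NPC1, which exports cholesterol from lysosomes, went from 2031, 2240.1 and 2257 to 4788, 4027 and 5045 (1.08 ± 0.13 SE, adjusted p = 0.000225), with 0.14 to 1.08 over its 3 probe sets and a mean of 0.61, and SQSTM1, an autophagy receptor, from 8475, 9533 and 9748 to 18797, 13445 and 19887. The count of rises was 2 without DMSO replicate 1 or 0.1 µM replicate 3, and 3 without DMSO replicate 2 or 0.1 µM replicate 1. Of 19 heat shock genes 1 rose, HSPB8 (1.30, not called on the mean of its probe sets), and 1 fell, HSPA4L (-0.56). These shares of 5.26% higher and 5.26% lower were near the 6.89% and 5.11% of all genes. Heat shock falls numbered 0 without DMSO replicate 1, 0.1 µM replicate 1 or 0.1 µM replicate 3, and 5 with the control-transcript set as a block. Among 14 tubulins TUBB2B rose from 632, 597 and 516 to 1852, 2320.4 and 2439 (1.89 ± 0.22 SE, adjusted p = 0.000151) and TUBE1 by 0.94, while TUBG1, TUBB6 and TUBB4B fell by 0.67, 0.59 and 0.50 on the log2 scale, though only 1 tubulin fall was called without 0.1 µM replicate 3. In the S100 and retinoic acid list S100P and S100A3 rose by 2.35 and 1.60, and CRABP2, which carries retinoic acid, fell from 12584, 12895 and 13128 to 7681, 6919 and 8167 (-0.76 ± 0.12 SE, adjusted p = 0.00157).

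**Figure D4:**
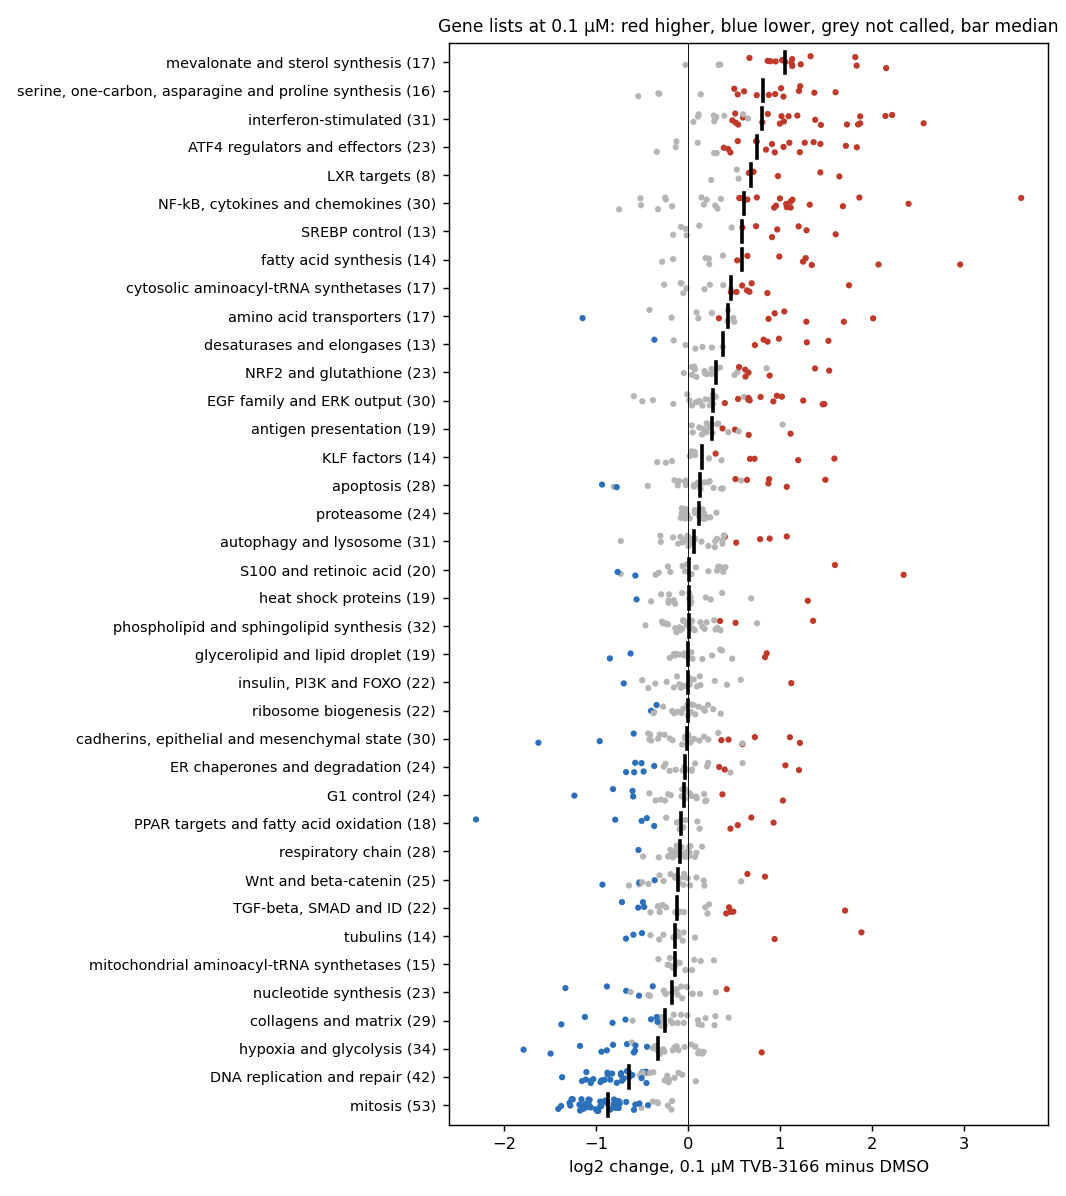
Each row is a gene list with the number of genes tested in brackets, each point a gene's log2 difference between 0.1 µM TVB-3166 and DMSO (red called higher, blue lower, grey not called), and each bar the list's median, ordered from 1.06 for mevalonate and sterol synthesis to -0.87 for mitosis. Vertical scatter within a row only separates the points.

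A further comparison was between the doses. Between 1.0 µM and 0.1 µM 114 genes were called (0.817% of 13948), 54 higher and 60 lower, and 1726 at an unadjusted p under 0.05. Of the 1674 genes called at 0.1 µM, 1596 (95.3%) were not called between the doses, which does not show that they were equal. The count of 114 was 17, 36 and 56 without 0.1 µM replicates 1, 2 and 3, and 26, 186 and 11 without 1.0 µM replicates 1, 2 and 3. Among the rest of the 1674, 42 rose further and 32 fell further at the higher dose, and 4 moved back. Both contrasts use the same 0.1 µM arrays, so an error on those arrays enters the changes with opposite sign.

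Genes that rose further were led by CXCL8, the neutrophil chemokine, with 61.6, 48.8 and 46.9 under DMSO, 147, 119 and 118 at 0.1 µM and 416, 326 and 488 at 1.0 µM. Its difference between the doses was 1.55 (95% interval 1.12 to 1.98, adjusted p = 0.00541, limma). MAFF gained 1.10 (0.84 to 1.35), SRXN1, an NRF2 target that repairs peroxiredoxins, 0.99, MXD1 0.97 and RCAN1, a calcineurin regulator, 0.92. COL1A1 fell further to 986, 646 and 978, a difference with a 95% interval of -1.86 to -1.14 (adjusted p = 0.00229, limma). CDH3 and CRABP2 fell further by 1.43 and 1.30 on the log2 scale, CLIC3, an intracellular chloride channel protein, by 1.12, and PCDH18, a protocadherin, by 1.05.

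The 4 genes that moved back were IFIT1, CRYAA, RETSAT and HK2. IFIT1 stood at 568, 574 and 675 under DMSO, 2341, 1995 and 1825 at 0.1 µM and 1201, 1449 and 1256 at 1.0 µM, so the low dose gave the higher level (difference -0.65, interval -0.91 to -0.39, adjusted p = 0.03, limma). CRYAA, a lens crystallin, went from 224, 287 and 229.6 to 398, 344 and 368 and then to 134, 124 and 139, below the DMSO arrays. RETSAT, a retinol saturase, rose by 0.33 at the low dose and was at -0.10 at the higher one. HK2, the inducible hexokinase, had 210.4, 242 and 360.0, then 106, 149 and 139, then 253, 296 and 285. Its 3 probe sets disagreed, and their mean gave 0.13 instead of -0.94 at 0.1 µM. The calls of CRYAA and RETSAT at 0.1 µM were each lost in 4 of the 6 fits that left out an array.

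Lipid, stress and cycle lists are given with the medians of both doses side by side, since both are set against the same DMSO arrays. The sterol list had a median of 1.06 at 0.1 µM and 0.83 at 1.0 µM, fatty acid synthesis 0.59 and 0.57, and the SREBP list 0.59 and 0.60. ATF4 regulators and effectors had 0.75 and 0.87, NRF2 and glutathione 0.31 and 0.54, and the EGF and ERK list 0.27 and 0.62. Interferon-stimulated genes had 0.81 and 0.77, mitosis -0.87 and -1.04, and DNA replication -0.64 and -0.83. Against 0.817% of all genes called between the doses, 1 of 17 genes in the sterol list was lower, 3 of 23 in the NRF2 list and 4 of 30 in the ERK list were higher, and of 31 interferon-stimulated genes 2 were higher and 1 lower.

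**Figure D5:**
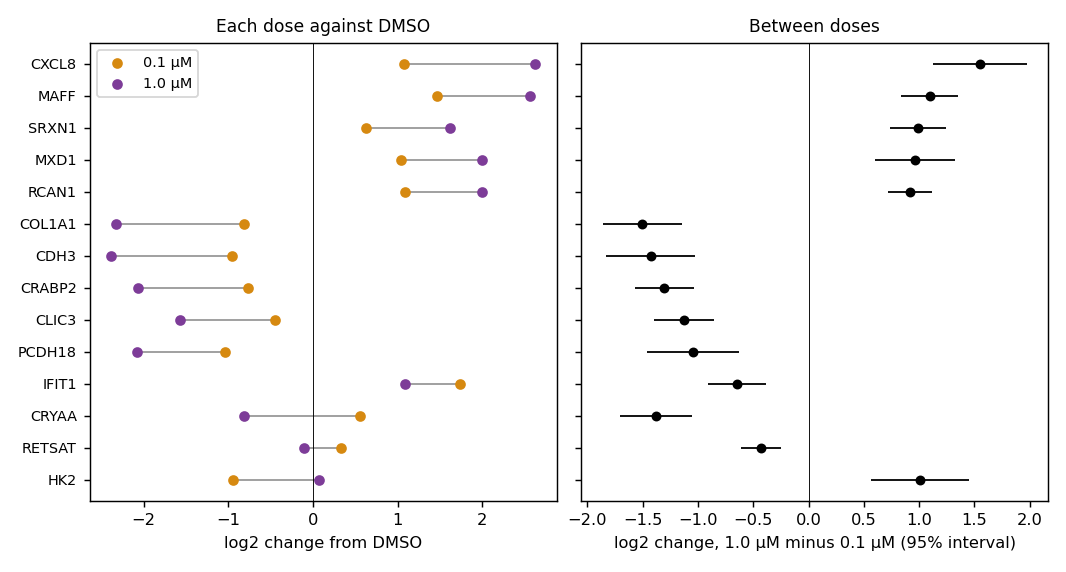
Left, log2 change from DMSO at 0.1 µM and 1.0 µM TVB-3166 for 14 genes that were called both at 0.1 µM and between the doses. Right, the log2 difference between the doses with its 95% interval from limma, where CXCL8 stands highest at 1.55 and COL1A1 lowest, with IFIT1, CRYAA, RETSAT and HK2 moving against their low-dose change.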

How the data were processed

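Each of 9 PANC-1 RNA samples was hybridised to an Affymetrix HG-U133 Plus 2.0 array. Per the submitters' processing notes the deposited values are MAS5 signals (version not given in the sources used here), a linear intensity per probe set that the authors scaled to the same trimmed mean on each array, and the series text names Partek Genomics Suite. Arrays have no read depth, so their number limits the precision.

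From these intensities log2(signal + 16) was computed, probe sets under the 40th percentile of mean level (signal 38.95) were dropped, leaving 32768 of 54675, and the brightest probe set stood for each gene. Of all probe sets 41091 had 1 symbol, 1801 several and 11721 none, and those with several or none were left out. All 9 arrays were fitted in 1 model with limma 3.58.1 (lmFit, eBayes with trend, R 4.3.3), which gives 6 residual degrees of freedom, and p-values were Benjamini-Hochberg adjusted over 13948 genes and called under 0.05. The pipeline was tested on simulated data. Promoter sequences came from RefSeq (GRCh38.p14).

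The members, gene lists and the split of the arrays by control-transcript signal were chosen with earlier results of these data known. Genes were named by largest change (mean signal of at least 200 in the higher group), smallest p, the 4 smallest p of each list, members against their list's direction, and calls between the doses. Other list members were named as examples after their values were seen. Alternatives changed the constant, filter, scaling, probe set rule, eBayes settings, array weights, blocks and arrays. Replicate numbers were not used to pair the samples in the main fit. Some genes of the sterol pathway are not reported here.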

Additional observations from a re-analysis of the deposited data

How the results depend on the processing

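Against DMSO the count of 1674 genes ranged from 843 to 1565 when each replicate was left out, and was 324 in the arrays of lower control-transcript signal alone and 924 with a change of at least 1.5-fold as well. The 961 rises ranged from 538 to 824 in the same order of settings, with 232 and 574, and the 713 falls from 305 to 741, with 92 and 350. Falls also numbered 438 with median centring, 1163 with array weights and 467 with the replicate block. Same-numbered DMSO and 0.1 µM arrays had correlations of -0.191, -0.244 and 0.002 after the group means were removed. Each of these pairs mixed the higher and the lower control-transcript set, so the correlations cannot show whether replicate numbers marked shared samples. The replicate block gave 1137 calls in all, 1128 of them shared with the 1674. The 114 genes called between the doses depended most on the setting: 11 to 186 when each replicate was left out, 67 with no filter, 173 with quantile normalization, 51 with median centring, 23 without the eBayes trend, 1953 with array weights, 23 with the replicate block, 256 with the control-transcript set as a block, 1 and 304 in the lower and higher set alone, and 65 with the 6 arrays compared alone. The lone 0.1 µM array of the lower set and the lone DMSO array of the higher set are assumed to vary like the other groups. Of 237 called genes named by the rules or in the text, 1 reversed, HK2, at 0.13 on the mean of its probe sets. None reversed elsewhere, and 112 lost their call in the lower set and 51 without 0.1 µM replicate 3, the largest losses. Of 30 list counts of 4 or more, 21 stayed within 1.5 times whichever array was left out, and 2 in the lower set alone. Under every scaling tried the median of all genes stayed between -0.006 and 0.022. The causes of these shifts were not tested. Dim genes had the widest errors.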

Other observations

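Of the 1674 genes changed at 0.1 µM, 1341 (80.1%) belonged to none of the gene lists, against 93.6% of all 13948 genes tested, with 764 of them higher and 577 lower. The largest rises with a mean signal of at least 200 were those of SLCO4C1, KLHDC7B and BEX2 and the largest falls those of ART5, FAM13A and MEGF6. The genes described here come from the 20 largest in each direction and were picked after their values were seen. Among the risers, BEX2, a small adaptor protein of the BEX family, went from 1346, 1156 and 1298 on the DMSO arrays to 5912, 6052 and 6500.4 at 0.1 µM (2.27 ± 0.09 SE, adjusted p = 1.24e-07, limma), and its relative BEX4 from 90.2, 103 and 87.6 to 378, 474 and 380.5 (1.96 ± 0.18 SE, adjusted p = 3.52e-05). LCN2, an iron-binding lipocalin, rose from 62.9, 92.8 and 101 to 379, 288 and 376, and TF, the iron carrier transferrin, from 95.8, 89.1 and 89.3 to 392, 336 and 392. Both lay apart from DMSO on all arrays, with changes of 1.85 and 1.85. LAMP3, a lysosomal membrane protein, rose from 677, 709.5 and 682 to 2382, 2442 and 2651 (1.83 ± 0.08 SE, adjusted p = 1.51e-07, limma). NIBAN1, a stress-induced protein, rose by 1.91, and HKDC1, a hexokinase relative, by 2.02. The Rab GTPases RAB33A and RAB39B rose by 1.94 and 1.87, and NCR3LG1, a ligand of natural killer cell receptors, by 2.06.

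Among genes outside the lists that fell, HAS2, a hyaluronan synthase, went from 538, 479 and 363 to 206, 224 and 139 (-1.22 ± 0.20 SE, adjusted p = 0.00214, limma). GJB6, a connexin, fell from 709, 670.1 and 759 to 212, 339 and 198, KCNJ2, a potassium channel, from 411, 379.6 and 518 to 148, 246 and 117, and ADAMTS15, a secreted protease, from 1285, 1525 and 1883 to 578, 539 and 520.5. In each of these the highest 0.1 µM array lay below the lowest DMSO array. KISS1R, the kisspeptin receptor, changed by -1.26, CADM1, a cell adhesion protein, by -1.24 and BCHE, a cholinesterase, by -1.21. Further genes of chromosome segregation, CDCA5, ZWINT, NUSAP1 and NCAPH, changed by -1.30, -1.28, -1.22 and -1.21, and POLQ, a repair polymerase, by -1.21. By chromosome, called genes made up 7.56% of those tested on chromosome 19, the lowest share, and 14.9% on chromosome 15, the highest.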
